A study of Mus musculus with 5 samples.

Results

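The 35 genes described here encode the enzymes that bring pyruvate into the citric acid cycle and turn the cycle outside complex II. They are the mitochondrial pyruvate carrier, the pyruvate dehydrogenase complex with its kinases and phosphatases, pyruvate carboxylase, the cycle enzymes, and the malic enzymes, citrate lyase and glutamate enzymes linked to the cycle. Members were taken by gene symbol from a table of 15116 genes, and all 35 were listed in it. Their RNA was compared between control hearts and hearts in which Immt had been deleted from cardiomyocytes of the adult mouse. The product of Immt, Mic60 or mitofilin, is a subunit of MICOS, which forms the junctions of mitochondrial cristae.

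Pyruvate dehydrogenase turns pyruvate into acetyl-CoA and so decides whether carbohydrate carbon enters the cycle. Kinases of the Pdk family phosphorylate its E1 alpha subunit and switch the complex off, and phosphatases of the Pdp family switch it on again. In the heart, where fatty acids are the main fuel, Pdk4 is known to rise in fasting, diabetes and high fatty acid supply through receptors of the PPAR family. The cycle then oxidizes acetyl-CoA to carbon dioxide and hands electrons to the respiratory chain, while carboxylation of pyruvate and the malic enzymes add or remove cycle intermediates.

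Knockout hearts gave 2 libraries and came from Immtfl/fl-Myh6-MCM mice, in which the Myh6 promoter drives a tamoxifen-dependent MerCreMer recombinase in cardiomyocytes and loxP sites flank an exon of Immt. Control hearts gave 3 libraries and came from Immt+/+-Myh6-Cre mice, which carry intact Immt and a Cre that needs no tamoxifen. Every mouse was given tamoxifen at 6 weeks of age, 3 times, and the knockout labels add that RNA was taken 10 weeks later. No time is given in the labels of the control mice, which the study describes as age-matched. Immt deletion and the MerCreMer transgene occur only together in these libraries and cannot be told apart. Sex may differ between the groups as well, since the study used males of the Myh6-Cre line and both sexes of the MerCreMer line. Whether sex plays a part was not tested. The study took the individual mouse as its unit, and p-values measure the spread between these 5 libraries.

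Values are normalized CPM, reads per 1 M reads of a common normalized library size, from tags at the 3′ end of transcripts. For each gene both knockout values follow from the group mean and SD, while the 3 control values are known only for 16 members, for which whole or shared reads could be worked back. For the other 19 members the range that the control SD allows is given. These unnumbered libraries are called control A, B and C and knockout A and B, at 13.6, 13.6, 12.1, 15.2 and 14.1 M reads of effective size. Genes of the mitochondrial genome held 36.7% of control reads and 32.2% of knockout reads. Immt itself lay between 245 and 263 CPM in the control libraries and at 16.0 and 19.8 CPM in the knockout (254 ± 7.76, SD, n = 3, against 17.9 ± 2.72, SD, n = 2, adjusted p = 3.3e-07). Its tags lie near the end of the transcript and not in the deleted exon, so they report the level of the transcript and not the deletion.

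In hearts lacking Immt, single enzymes of the pathway changed while its median stayed near that of all genes. The regulatory kinase Pdk4 rose 3.35-fold in mean CPM, cytosolic malic enzyme Me1 rose 2.33-fold, the E1 beta subunit Pdhb 1.77-fold and the E1 subunit of oxoglutarate dehydrogenase, Ogdh, 1.45-fold. Suclg2, Idh3b and Mpc1 rose by 1.28-, 1.17- and 1.16-fold. Pdk3, Pdp2, citrate synthase (Cs) and Got2 fell. At an adjusted p below 0.05, 7 of 35 members were higher and 4 lower, or 31.4%, where 26.2% of all genes were called (13.3% higher and 12.9% lower). The share of members called lay near that of all genes. The median log2 fold change of the members was -0.03, against -0.02 for all genes.

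The direction of small changes depended on how libraries were scaled. Scaling to library totals moved the log2 ratio of mean CPM by 0.13 in every gene. With 0.5 CPM added, as in the test, low genes moved less, such as Pdk3 from -0.97 to -0.87. The median of all genes went from -0.02 to 0.09. The calls over all genes then went from 2014 higher and 1944 lower to 3067 higher and 1419 lower, which is 29.7% called, 20.3% higher and 9.39% lower. Among members, 8 were then higher, with Idh3g added (adjusted p = 0.035), and 2 lower, since Cs and Got2 were no longer called. The members' median became 0.10. None of the 11 called members changed direction, whereas 7 members that were not called did.

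**Figure D1:**
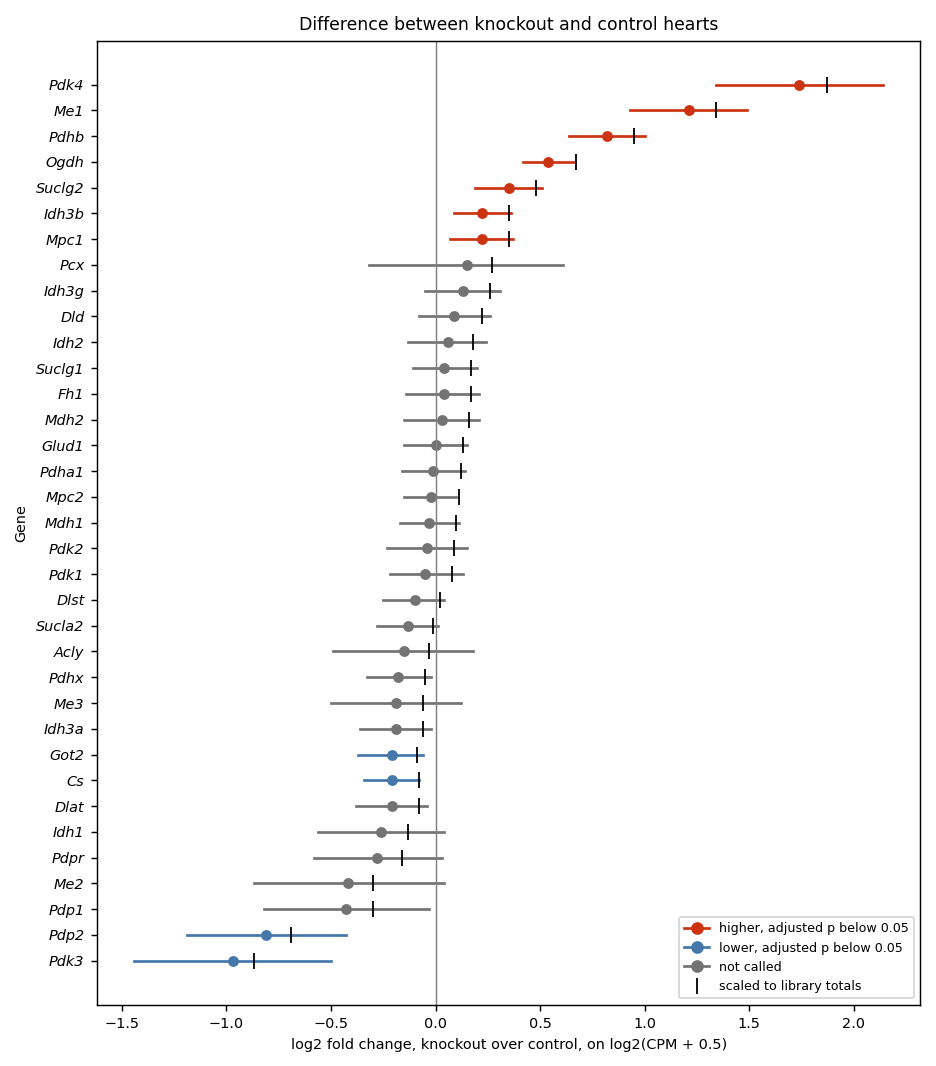
Log2 fold change of each of the 35 genes (x axis, knockout over control, on log2(CPM + 0.5)), ordered by size on the y axis, with 95% intervals from limma as lines and the value under scaling to library totals as a black tick. Red marks the 7 genes called higher, from Mpc1 at 0.22 to Pdk4 at 1.74, blue the 4 called lower, from Got2 and Cs at -0.21 to Pdk3 at -0.97, and grey the 24 that were not called.

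Promoters of the 3 genes with the largest rises are printed for reference, from RefSeq on mouse build GRCm38.p6, 5′ to 3′ along the gene. Each holds the 250 bases before the start of transcription and the first 10 of the transcript, from the furthest upstream start listed. Capitals mark a match to TGACNNNGC, the core of the antioxidant response element, on either strand. They lie at chr6:5496269-5496528 (Pdk4), chr9:86695905-86696164 (Me1) and chr14:8172983-8173242 (Pdhb), all on the minus strand.
Pdk4: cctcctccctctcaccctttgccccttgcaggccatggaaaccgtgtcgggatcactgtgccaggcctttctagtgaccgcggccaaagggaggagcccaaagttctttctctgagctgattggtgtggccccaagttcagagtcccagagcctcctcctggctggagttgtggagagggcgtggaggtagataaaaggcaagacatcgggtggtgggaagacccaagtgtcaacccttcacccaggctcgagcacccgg
Me1: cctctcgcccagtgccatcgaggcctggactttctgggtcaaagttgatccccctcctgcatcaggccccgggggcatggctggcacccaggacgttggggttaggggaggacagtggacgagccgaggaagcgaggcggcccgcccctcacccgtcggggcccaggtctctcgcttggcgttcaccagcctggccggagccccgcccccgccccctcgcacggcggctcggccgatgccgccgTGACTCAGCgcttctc
Pdhb: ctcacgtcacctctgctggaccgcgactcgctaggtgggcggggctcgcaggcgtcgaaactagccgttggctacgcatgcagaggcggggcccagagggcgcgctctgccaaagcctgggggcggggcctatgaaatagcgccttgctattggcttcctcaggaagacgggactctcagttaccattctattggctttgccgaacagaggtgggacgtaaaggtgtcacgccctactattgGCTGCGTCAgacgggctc
In Me1 the match begins 6 bases before the start and reads along the gene, and in Pdhb it begins 8 bases before the start and reads on the opposite strand. The Pdk4 window held no match.

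RefSeq windows were found for 32 of the 35 members (Me2, Pdp1 and Idh3a had none), 43 windows in all, each searched over 300 bases. TGACNNNGC was in 7 of these 43 windows, those of Mpc1, Pdhb, Idh3g, Dlst, Sucla2, Mdh1 and Me1, and in 12.4% of all 32851 windows. Of these 7 genes, 3 were called higher and 4 were not called, where 7 of all 35 members and 13.3% of all genes were higher. In Mpc1 the match lies only in the window of its downstream start. The E-box CACGTG, to which bHLH factors bind, was in 7 of the 43 windows and in 7.15% of all windows. The member windows were those of Pdk2, Pdp2, Pdpr, Pcx and Ogdh. Ogdh has several of them, and those starting at chr11:6292308 and chr11:6292329 overlap and hold the same match. Of these 5 genes, 1 was called higher, 1 lower and 3 were not called. The C/EBP-ATF composite letters TGATGCAA and the estrogen-related receptor letters TCAAGGTCA were in 0.895% and 0.423% of all windows and in none of the members' windows. A match is a description of letters and not a binding site.

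Pyruvate enters mitochondria through a carrier made of Mpc1 and Mpc2. Mpc1 lay between 437 and 484 CPM in the control libraries and at 513 and 559 CPM in the knockout. The groups did not overlap, and Mpc1 was higher by a log2 fold change of 0.22 (95% interval 0.07 to 0.37, adjusted p = 0.04). Mpc2 had 625 ± 11.2 CPM (SD, n = 3) in the control and 615 ± 23.6 CPM (SD, n = 2) in the knockout, with a log2 fold change of -0.02 (95% interval -0.15 to 0.10, adjusted p = 0.81).

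Within the pyruvate dehydrogenase complex 1 of 5 genes was called. Pdhb encodes the beta subunit of E1, which joins the alpha subunit Pdha1 in a tetramer that decarboxylates pyruvate. Pdhb lay between 299 and 369 CPM in the control libraries and at 578 and 602 CPM in the knockout. Both knockout values were far above the highest control value the SD allows, and the log2 fold change was 0.82 (SE 0.08, adjusted p = 1.8e-04). Its partner Pdha1 lay between 349 and 396 CPM in the control libraries and at 364 and 375 CPM in the knockout, inside the control range. The log2 fold change of Pdha1 was -0.01 (95% interval -0.16 to 0.14).

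The remaining subunits did not pass the test. Dlat, the E2 acetyltransferase core, lay between 178 and 204 CPM in the control libraries and at 158 and 173 CPM in the knockout libraries (log2 fold change -0.21, adjusted p = 0.074). Pdhx, which binds E3 to that core, had 68.1, 67.3 and 70.5 CPM in control A, B and C and 61.2 and 60.3 CPM in the knockout libraries (log2 fold change -0.18, adjusted p = 0.1). In both genes every knockout value lay below every control value, and under scaling to library totals their log2 fold changes were -0.08 and -0.05. Dld, the E3 subunit that is shared with the oxoglutarate, branched-chain and glycine complexes, had 159.6, 164 and 160.2 CPM in the control libraries and 183 and 160.1 CPM in the knockout libraries (log2 fold change 0.09, adjusted p = 0.41). Its knockout libraries differed from each other by more than its control libraries did.

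The kinases moved apart. Pdk4 lay between 94.8 and 176 CPM in the control libraries and at 433 and 475 CPM in the knockout. The groups were separated by a wide gap, with a log2 fold change of 1.74 (SE 0.18, 95% interval 1.34 to 2.14, adjusted p = 2.2e-04). The control SD of 35.2 CPM on a mean of 135 CPM shows that Pdk4 also varied among control hearts. Pdk3 had 3.82, 2.49 and 3.30 CPM in control A, B and C and 1.58 and 1.21 CPM in the knockout. These are 52, 34 and 40 reads against 24 and 17, every knockout value below every control value, and Pdk3 was lower by a log2 fold change of -0.97 (SE 0.21, adjusted p = 0.0091).

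Pdk1 and Pdk2, the other kinases of the family, were not called. Pdk1 had 39.6, 39.9 and 41.2 CPM in the control libraries and 39.1 and 38.7 CPM in the knockout. These values did not overlap but differed by a log2 fold change of only -0.05 (95% interval -0.22 to 0.13, adjusted p = 0.69). Pdk2 lay between 75.0 and 89.6 CPM in the control libraries and at 76.9 and 83.2 CPM in the knockout libraries (log2 fold change -0.04, adjusted p = 0.78). Pdk4 was thus the 1 of 4 kinases called higher and Pdk3 the 1 called lower.

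Of the 3 phosphatase genes, 1 was called. Pdp2, a catalytic subunit that reverses the kinases, had 13.5, 16.6 and 11.7 CPM in control A, B and C and 6.84 and 8.67 CPM in the knockout. Each knockout library was below each control library, and the log2 fold change was -0.81 (SE 0.17, adjusted p = 0.0079). Pdp1, the calcium-stimulated catalytic subunit, had 28.3, 24.6 and 17.4 CPM in the control libraries and 16.7 and 18.0 CPM in the knockout. Here control C lay within the knockout values, and the log2 fold change of -0.43 was not called (adjusted p = 0.11). Without control C it was -0.59 and called, with an adjusted p = 8.5e-04 over the genes with whole reads in every library. Without control A or control B, Pdp1 was not called by the same test (log2 fold changes -0.25 and -0.35, adjusted p = 0.34 and 0.29). Pdpr, the regulatory subunit, had 9.47, 8.65 and 8.09 CPM in the control libraries and 6.58 and 7.68 CPM in the knockout libraries (log2 fold change -0.28, adjusted p = 0.17). Without knockout A, Pdp2 was no longer called (log2 fold change -0.64, adjusted p = 0.098), and without knockout B the same held for Pdk3 (-0.82, adjusted p = 0.12).

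**Figure D2:**
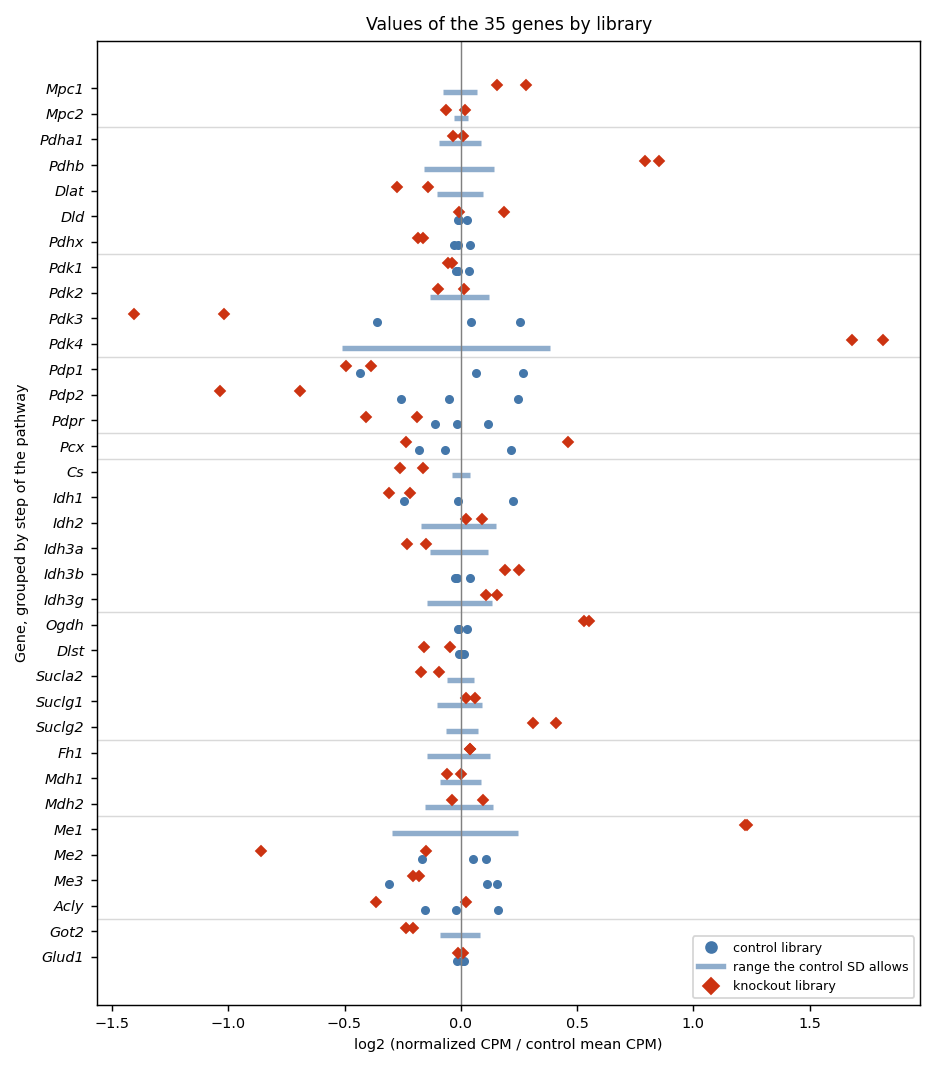
Values of each gene (y axis, grouped by step) as log2 of normalized CPM over the control mean (x axis). Blue circles are control libraries where all 3 could be worked back, blue bars the range that the control SD allows elsewhere, and red diamonds the 2 knockout libraries. The diamonds of Pdk4, Me1, Pdhb and Ogdh lie well to the right of the control values, and those of Pdk3 and Pdp2 to the left.

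Pyruvate carboxylase (Pcx), which makes oxaloacetate from pyruvate, had 7.78, 6.38 and 5.90 CPM in the control libraries and 9.21 and 5.69 CPM in the knockout libraries, which enclosed all control values (log2 fold change 0.15, 95% interval -0.32 to 0.61).

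From citrate to oxoglutarate, 1 of 6 genes was higher and 1 lower. Citrate synthase, Cs, joins acetyl-CoA to oxaloacetate, and its enzyme activity is widely used as a measure of mitochondrial content. The values here are of its RNA and not of that activity. Cs RNA lay between 599.7 and 633 CPM in the control libraries and at 514 and 550.3 CPM in the knockout. The groups did not overlap, with a log2 fold change of -0.21 (95% interval -0.34 to -0.08, adjusted p = 0.028), which became -0.08 (adjusted p = 0.33) under scaling to library totals.

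Isocitrate dehydrogenase 3, the NAD-dependent enzyme of the cycle, is built of alpha, beta and gamma subunits, and these differed. Idh3b had 269, 282 and 271 CPM in the control libraries and 326 and 313 CPM in the knockout, all above the control (log2 fold change 0.22, SE 0.06, adjusted p = 0.024). Without knockout A it was no longer called (log2 fold change 0.19, adjusted p = 0.074). Idh3a, the catalytic subunit, lay between 337 and 400.0 CPM in the control libraries and at 314 and 333 CPM in the knockout, below them all, and was not called (log2 fold change -0.19, adjusted p = 0.097). Idh3g lay between 196 and 238 CPM in the control libraries and at 234 and 242 CPM in the knockout libraries (log2 fold change 0.13, adjusted p = 0.25). The NADP-dependent enzymes were not called either. Mitochondrial Idh2 had 1176 ± 113 CPM (SD, n = 3) in the control and 1222 ± 40.1 CPM (SD, n = 2) in the knockout. Cytosolic Idh1 had 37.5, 31.8 and 27.1 CPM in the control libraries and 27.6 and 25.9 CPM in the knockout libraries (log2 fold change -0.26, adjusted p = 0.19). As for Pdp1, control C was the lowest control library, and without it Idh1 was called (log2 fold change -0.36, adjusted p = 0.015). Without control A or control B, Idh1 was not called by the same test (log2 fold changes -0.13 and -0.25, adjusted p = 0.52 and 0.32).

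From oxoglutarate to succinate, 2 of 5 genes were higher. Ogdh, the E1 subunit of the oxoglutarate dehydrogenase complex, had 645, 631 and 628 CPM in the control libraries and 929 and 916 CPM in the knockout. The spread within each group was small beside this gap, and the log2 fold change was 0.54 (SE 0.05, adjusted p = 1.8e-04). Its E2 partner Dlst had 184, 181 and 182 CPM in the control libraries and 176 and 163 CPM in the knockout libraries (log2 fold change -0.10, 95% interval -0.25 to 0.04, adjusted p = 0.27). The groups of Dlst did not overlap, but the log2 fold change became 0.02 under scaling to library totals.

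Succinyl-CoA synthetase pairs the alpha subunit Suclg1 with either an ATP-forming beta subunit, Sucla2, or a GTP-forming one, Suclg2. Suclg2 lay between 99.4 and 109.5 CPM in the control libraries and at 129 and 138 CPM in the knockout, above all of them (log2 fold change 0.35, SE 0.07, adjusted p = 0.0064). Sucla2 lay between 305 and 331 CPM in the control libraries and at 282 and 298 CPM in the knockout libraries (log2 fold change -0.13, adjusted p = 0.15). The groups of Sucla2 did not overlap either, in the other direction, and under scaling to library totals its log2 fold change was -0.01. The common subunit Suclg1 had 274 ± 16.0 CPM (SD, n = 3) in the control and 282 ± 6.12 CPM (SD, n = 2) in the knockout (log2 fold change 0.04, 95% interval -0.11 to 0.20).

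The last steps, from fumarate to oxaloacetate, had small differences. Fumarase (Fh1) had 178 ± 14.3 CPM (SD, n = 3) in the control and 183 CPM in both knockout libraries, and cytosolic and mitochondrial malate dehydrogenase (Mdh1, Mdh2) had log2 fold changes of -0.03 and 0.03. By limma 0 of these 3 genes were called and 0 had an unadjusted p below 0.05, with 95% intervals that reached from -0.17 to 0.21 across the 3 genes.

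Beside the cycle, Me1 was the 1 of 4 malic enzyme and citrate lyase genes that was called. Me1 turns malate into pyruvate in the cytosol and yields NADPH, and it is a known target of the antioxidant factor NRF2. It lay between 34.4 and 50.1 CPM in the control libraries and at 98.3 and 98.9 CPM in the knockout. Both knockout values were above the whole control range, with a log2 fold change of 1.21 (SE 0.12, adjusted p = 2.2e-04). Mitochondrial Me2 had 5.80, 4.99 and 6.03 CPM in the control libraries and 3.09 and 5.05 CPM in the knockout, which overlapped (log2 fold change -0.42, adjusted p = 0.16). Me3, also mitochondrial, and Acly, which splits citrate in the cytosol, had log2 fold changes of -0.19 and -0.15 with overlapping groups.

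Among the glutamate links, Got2, the mitochondrial aspartate aminotransferase of the malate-aspartate shuttle, lay between 168 and 189.6 CPM in the control libraries and at 152 and 155 CPM in the knockout. The groups did not overlap, with a log2 fold change of -0.21 (adjusted p = 0.047) that became -0.09 (adjusted p = 0.39) under scaling to library totals. Glutamate dehydrogenase, Glud1, had 72.6, 71.1 and 72.1 CPM in the control libraries and 72.4 and 71.4 CPM in the knockout, which overlapped (log2 fold change -0.00, 95% interval -0.15 to 0.15).

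Counted over all members, groups did not overlap in 18, with 7 higher and 11 lower in the knockout, where 48.4% of all genes had groups that did not overlap, 24.5% higher and 23.9% lower. The 7 higher ones were the 7 called genes. Of the 11 lower ones 4 were called, and the other 7 (Dlat, Pdhx, Pdk1, Pdpr, Idh3a, Dlst and Sucla2) had log2 fold changes between -0.28 and -0.05.

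Genes that work as partners in a step were set against each other. A difference of log2 fold changes within the same libraries depends little on scaling. These 10 pairs were chosen with their values known, and the intervals take both genes as independent, so they describe and do not test. Pdhb exceeded Pdha1 by 0.83 on the log2 scale (95% interval 0.60 to 1.07), and Ogdh exceeded Dlst by 0.64 (0.46 to 0.83). Suclg2 exceeded Sucla2 by 0.49 (0.27 to 0.70), Idh3b exceeded Idh3a by 0.41 (0.19 to 0.62) and Mpc1 exceeded Mpc2 by 0.24 (0.04 to 0.44). Idh3b and Idh3g differed by 0.09 (-0.13 to 0.31). The difference of Pdp2 from Pdp1 was -0.38 (-0.93 to 0.17).

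**Figure D3:**
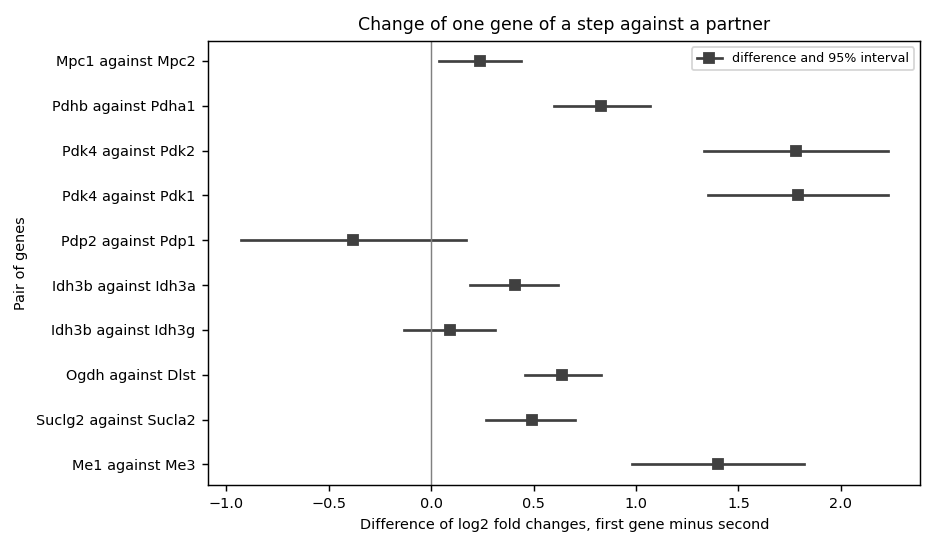
Difference of the log2 fold changes of 2 partner genes (x axis, first gene minus second) for 10 pairs (y axis), with 95% intervals that take the genes as independent. Pdk4 stands 1.78 above Pdk2 and Me1 1.40 above Me3, while Idh3b and Idh3g lie 0.09 apart.

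Several values carry a limit from the counting. Knockout reads came out whole for 22 members and as whole numbers plus a fraction of a read for 11, so part of the reads of those 11 were divided between features. Pdk4, Pdhb, Suclg2, Mpc1 and Cs are among them, and for Me1 and Suclg1 no reads could be worked back. Their levels are uncertain to the extent that reads of related copies were counted there.

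Markers of the cell types of the heart were compared beside these genes. Over all genes 13.3% were higher and 12.9% lower. Of 10 cardiomyocyte markers 7 were lower, and the summed level of all 10 went from 37518 to 31415 CPM. Actc1 alone went from 9989 ± 1594 CPM (SD, n = 3) to 6974 ± 309 CPM (SD, n = 2). Myl2 and Myl3 were not called, at 1.12 and 1.03 times their control means. Under scaling to library totals 5 of the 10 were lower and 1 was higher, Myl2 (log2 fold change 0.29, adjusted p = 0.0065). In bulk tissue fewer cells of a type and less RNA per cell cannot be told apart. Of 8 macrophage markers 3 were lower (249 to 181 CPM in sum), of 8 fibroblast markers 1, of 7 smooth muscle and pericyte markers 1, and the 8 endothelial markers summed to 1302 and 1269 CPM. Red cell markers summed to 5948 and 3378 CPM with no gene called. The single atrial gene called, Myl4, at 3.45 CPM in the control, and the brown fat gene Cidea were lower. Nppa, the other atrial gene listed, was not called (146 against 107 CPM). Under scaling to library totals neither Myl4 nor Cidea was called by limma (adjusted p = 0.078 and 0.089). With that scaling 2 macrophage markers, 0 fibroblast markers and 1 smooth muscle and pericyte marker were lower. Ucp1, the defining white fat gene Adipoq and the 6 lymphocyte markers were not listed. Of 8 white fat markers 2 were listed, Car3 and Pck1, and neither was called. Whether these markers play a part in the members' values was not tested.

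Pdk4 is a known PPAR target, and 12 other known PPAR targets were counted. Of these, 5 were higher and 1 lower, where 13.3% of all genes were higher and 12.9% lower. Their median log2 fold change was 0.37, against -0.02 for all genes. Whether PPAR receptors play a part in the rise of Pdk4 was not tested. Acot2, a mitochondrial acyl-CoA thioesterase with close paralogs, had 31.6 ± 2.17 CPM (SD, n = 3) in the control and 165 ± 13.9 CPM (SD, n = 2) in the knockout. Fabp3, the heart fatty acid binding protein, went from 3875 ± 76.2 to 5675 ± 231 CPM, and Ucp2, an uncoupling protein homologue, went the other way from 70.7 ± 6.13 to 14.6 ± 2.42 CPM (adjusted p = 1.0e-05). Of 15 regulators of Pdk4 and of mitochondrial genes 1 was called, Hif1a, from 24.8 ± 1.10 to 38.4 ± 0.505 CPM (adjusted p = 9.9e-04).

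The cofactors and the neighbouring steps of the cycle were counted in the same way, beside 13.3% higher and 12.9% lower over all genes. Pyruvate and oxoglutarate dehydrogenase need lipoate and thiamine pyrophosphate, and of 11 genes that supply them 2 were higher and 2 lower. Nfu1, an iron-sulfur carrier needed for lipoate synthesis, went from 58.4 ± 0.543 to 84.8 ± 7.22 CPM and the thiamine transporter Slc19a2 from 6.12 ± 0.213 to 11.5 ± 1.54 CPM. In complex II, which oxidizes succinate, 1 of 8 genes was called, Sdhd (325 ± 18.1 against 249.7 ± 0.736 CPM, adjusted p = 0.0033). Of 11 carrier and shuttle genes 3 were higher and 3 lower. Got1, the cytosolic partner of Got2, rose from 479.6 ± 40.3 to 809.7 ± 6.63 CPM (adjusted p = 2.0e-04), while Slc25a11, the oxoglutarate carrier of the same shuttle, fell from 404 ± 6.29 to 306 ± 5.32 CPM (adjusted p = 0.0011). Pck2, which makes phosphoenolpyruvate from oxaloacetate in mitochondria, rose from 6.21 ± 0.805 to 14.6 ± 1.89 CPM (adjusted p = 6.6e-04).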

How the data were processed

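The authors captured polyadenylated RNA of mouse hearts with a barcoded oligo-dT primer that also holds a unique molecular identifier, so that reads come from the 3′ end of transcripts. The submitters' processing notes name edgeR 4.0.16, featureCounts and Subread 2.1.1, SAMtools 1.22.1, STAR 2.7.11 and the build GRCm39. The deposited table gives, per gene, a mean signal in normalized CPM and its SD for each group, to 6 digits, and no single library. Columns of the authors' own comparison (fold change, p, adjusted p, F and mean log2 CPM), also deposited, were not used. The minimum level for listing is not given in the sources used here.

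Log2(mean + 0.5 CPM) and its variance were computed from mean and SD and tested with limma 3.58.1 (R 4.3.3, moderated variances with a mean-variance trend) in all 15116 genes, with Benjamini-Hochberg adjustment. Fold changes on this scale understate those of low genes. Knockout values are the mean ± SD over the square root of the group size. Effective library sizes were solved from genes whose reads must be whole, and a control solution was kept where it was the only one and none of 50 shifted means gave a match. Knockout reads came out whole for 10489 genes (69.4%), and all 5 libraries for 8854. Both procedures were run on simulated data, whose outcome is not given here. The simulated recovery used whole reads and known library sizes, so it did not cover fractional reads or the solving of sizes. The simulated limma data had the same dispersion in every gene. Members, lists and tests were chosen with earlier results of these data known. The text names all members, Immt, and up to 3 called genes with the smallest p per related list. A gene that this rule picks is not reported here. It also names some markers, chosen after their values were seen. Alternatives were scaling, pseudocounts of 0.1 and 1 CPM, minimum means of 1 and 5 CPM, no trend, no moderation, leaving out libraries and, added after the data were seen, limma and limma-voom on recovered reads. Promoters were matched by symbol in RefSeq (GRCm38.p6), and no coordinate was carried between builds.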

Additional observations from a re-analysis of the deposited data

How the results depend on the processing

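Only Ogdh and Pdhb were called under every alternative run for them. There were 17 alternatives for Ogdh but 9 for Pdhb, Pdk4 and Me1, and none of those 9 left out a control library. Pdk4 and Me1 were called in all but the test without moderation (adjusted p = 0.065 and 0.053). Without a mean-variance trend 4 members were higher (Me1, Pdhb, Ogdh, Pdk4) and 2 lower. Without moderation 2 members were higher and 0 lower by limma's unmoderated variances (7 and 5 at an unadjusted p below 0.05), and the calls of all genes were 934 higher and 569 lower. Under library totals 3067 genes were higher and 2 members lower, and 2 members were also lower with totals that left out the mitochondrial genome. No called member changed direction under any alternative.

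Leaving out a library was possible in 2 ways. With the knockout value nearer the control alone, 714 genes were higher and 604 lower, and 4 members were higher and 0 lower (6 and 2 at an unadjusted p below 0.05 by limma). In the 8854 genes with whole reads, tested per library with limma, 798 were higher and 1122 lower, with 2 members higher and 2 lower of 12. Limma-voom called 835 and 1068 genes and the same number of members. Leaving out each library in turn gave 316 to 1102 higher and 508 to 1544 lower genes, 1 to 2 members higher and 1 to 4 lower. Over all genes, and for lower members, the lowest counts came without knockout A or B, and the highest without control C, whose median absolute log2 deviation from the other controls was 0.15 against 0.12 for A and B. A single remaining knockout library was taken to vary like the controls. No paired analysis was possible because the table names no library and the recovered ones carry no replicate number.

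With 2 knockout libraries, differences near 0.2 on the log2 scale sit at the limit of the test. Mpc1, Idh3b, Cs and Got2 were each lost under at least 3 alternatives. Larger changes were lost under some alternatives as well. Suclg2 was called under 6 of 9, Pdk3 under 13 of 16 and Pdp2 under 14 of 17.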

Other observations

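Genes of neighbouring pathways that compete for or feed the same carbon were counted with the same test. Over all genes 13.3% were higher and 12.9% lower. Among 7 genes of the sister dehydrogenase complexes, 1 was higher and 2 were lower. Ppm1k, the phosphatase that activates branched-chain keto acid dehydrogenase, fell from 53.6 ± 5.09 CPM (SD, n = 3) to 16.8 ± 0.569 CPM (SD, n = 2), a log2 fold change of -1.64 (adjusted p = 1.6e-05). Dbt, the E2 subunit of that complex, was lower by a log2 fold change of -0.30 (adjusted p = 0.032) and was not called under scaling to library totals. Ogdhl, a homologue of Ogdh, rose from 3.56 ± 1.19 to 8.26 ± 0.321 CPM (adjusted p = 0.0077).

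Of 7 genes of lactate and pyruvate exchange 2 were lower, lactate dehydrogenase A (Ldha, 330.5 ± 13.4 against 242 ± 14.5 CPM, adjusted p = 0.0015) and alanine aminotransferase (Gpt, 14.5 ± 2.12 against 8.87 ± 0.578 CPM, adjusted p = 0.0076). Of 7 genes of propionate entry, the GABA shunt and ketone body use 4 were lower. They included Oxct1, the ketone body transferase that uses succinyl-CoA (725 ± 21.2 against 553 ± 8.58 CPM, adjusted p = 0.0012), and Aldh5a1 and Abat of the GABA shunt (log2 fold changes -0.55 and -0.54). Under scaling to library totals Oxct1 and Aldh5a1 were called and Abat was not.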
